A study of Mus musculus with 63 samples.

Results

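MHC molecules show peptides to T cells. Class I molecules display peptides from the cell's own proteins to CD8 T cells. They join a heavy chain, such as the products of H2-K1 and H2-D1, to the light chain B2m, and are loaded with peptides that the transporter subunit Tap1 moves into the endoplasmic reticulum and that tapasin, the product of Tapbp, helps to select. Class II molecules display peptides from endocytic compartments to CD4 T cells. Their alpha and beta chains (H2-Aa and H2-Ab1 for I-A, H2-Eb1 for the beta chain of I-E) assemble on the invariant chain Cd74, and their transcription depends on the coactivator Ciita. In the healthy brain, class II is best known from dendritic cells and border macrophages, while resting microglia carry little of it, and C57BL/6 mice make no surface I-E because their H2-Ea gene is defective.

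The measurements below cover these 10 genes of MHC class I and class II antigen presentation. They were chosen by symbol: each symbol matched 1 Ensembl identifier in the 4 raw count tables of the study, so that the members were 10 of 56980 identifiers, of which 52073 had a symbol. H2-K1 (ENSMUSG00000061232), H2-D1 (ENSMUSG00000073411), Tap1 (ENSMUSG00000037321), Tapbp (ENSMUSG00000024308), H2-Aa (ENSMUSG00000036594), H2-Ab1 (ENSMUSG00000073421) and H2-Eb1 (ENSMUSG00000060586) lie on chromosome 17. B2m (ENSMUSG00000060802) lies on chromosome 2, Cd74 (ENSMUSG00000024610) on chromosome 18 and Ciita (ENSMUSG00000022504) on chromosome 16. All 10 passed the minimum total of 10 counts in every comparison. In ACSA2-positive astrocytes, H2-Aa passed it with counts from burn libraries alone and therefore had to differ there.

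The study asked how a small skin burn changes gene expression in cortical cell types. Female C57BL/6J mice, 12 weeks old at arrival, all received AAV5-CamKII-eGFP and AAV1-mDlx-mRuby2 in both motor cortices and had the right flank shaved. Burn mice then received a thermal burn of 7 to 8% of the body surface and sham mice everything except the burn, and both were killed 5 weeks later. CaMKII positive cells (eGFP alone) and CaMKII-mDlx double-positive cells (eGFP and mRuby2) were sorted from motor cortex, and ACSA2-positive astrocytes and CD11b-positive microglia from the cortex caudal to it with antibodies, and each library of total RNA held the cells of 1 population from 1 mouse. Viral promoters and not gene products marked the neurons, and glia came from a different region than neurons. The libraries kept were 4 burn and 6 sham for CaMKII positive, 9 and 7 for CaMKII-mDlx double-positive, 9 and 8 for ACSA2-positive astrocytes, and 8 and 7 for CD11b-positive microglia, from 17 mice. Their totals ran from 13346143 to 134703744 counts, so that a library without a read of a gene allowed a level of up to 0.0223 to 0.225 CPM (3 counts, counting error only).

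The double-positive libraries went against their label. The summed level of 8 microglial markers was 17148 to 33049 CPM in them, against 20881 to 33342 CPM in CD11b-positive microglia and 152 to 288 CPM in ACSA2-positive astrocytes, and the sum of 8 neuronal markers was 6.83 to 42.3 CPM. The CaMKII positive libraries held 13839 to 26227 CPM of 8 astrocyte markers, 3396 to 9777 CPM of 8 endothelial markers, 466 to 1880 CPM of the microglial markers and 22.5 to 186 CPM of the neuronal markers. The names below are therefore those of the sort and not of a cell type. In bulk samples such as these, fewer cells of a type and less RNA per cell cannot be told apart.

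The genes of this set are switched by short promoter elements, and 3 promoters are shown because their genes are among those that differed between populations and carry such elements. Of the 10 members, 7 had a window in the RefSeq promoter table (GRCm38.p6, 250 bases before and 50 after the start), and H2-Ab1, Cd74 and Ciita had none. The lines give the part upstream of the start, 5′ to 3′ on the gene's strand, in lower case. Capitals mark the exact matches to an X2 box (TGACGTCA), a Y box (TGATTGG, or CCAATCA on the other strand) and a kappaB element (GGGGATTCC, or GGAATCCCC on the other strand). The H2-Aa stretch is chr17:34287824-34287973 (minus strand), that of H2-Eb1 chr17:34305717-34305866 (plus strand) and that of H2-D1 chr17:35262914-35263093 (plus strand).
H2-Aa: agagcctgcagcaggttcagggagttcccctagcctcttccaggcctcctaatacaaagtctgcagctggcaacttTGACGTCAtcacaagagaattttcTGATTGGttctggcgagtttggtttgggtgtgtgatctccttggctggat
H2-Eb1: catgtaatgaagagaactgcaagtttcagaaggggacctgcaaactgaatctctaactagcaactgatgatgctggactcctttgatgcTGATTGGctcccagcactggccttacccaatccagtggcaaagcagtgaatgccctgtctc
H2-D1: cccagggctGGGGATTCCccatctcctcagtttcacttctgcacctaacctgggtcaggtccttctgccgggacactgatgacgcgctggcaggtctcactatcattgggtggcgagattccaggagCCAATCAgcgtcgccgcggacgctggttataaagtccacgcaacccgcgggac

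The Y box, the element bound by NF-Y, was present in 5 of the 7 member windows (H2-K1, H2-D1, Tap1, H2-Aa and H2-Eb1), against 7.82% of all 32851 windows. It stood 50 bases before the start in H2-Aa, 61 in H2-Eb1 and 53 in H2-D1, but 222 in Tap1. These distances count from the first base of the match. H2-K1 has 2 windows with different starts, and its match did not lie wholly before either of them. The X2 box, a site for CREB family proteins, matched in H2-Aa alone among the members (1.79% of all windows), and the kappaB element in H2-K1 and H2-D1 (0.25% of all windows). These were matches of letters in a window, on both strands, and no factor was measured. None of the matches shown overlapped another.

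Class I and class II members followed different orders across the 4 sorted populations, as the plot of levels by library shows. The class I chains were most abundant in double-positive and CD11b-positive libraries, whereas the class II members had their highest medians in CaMKII positive libraries, and all 10 were lowest in ACSA2-positive astrocytes. B2m, the class I light chain, had a median of 1194 CPM in double-positive libraries, 1072 in microglia, 660 in CaMKII positive and 69.5 in astrocytes. For the heavy chain genes the same order held, with medians of 843, 624, 385 and 73.7 CPM for H2-K1 and 854, 604, 520 and 49.2 CPM for H2-D1. Neighbours in these orders overlapped in range, except at the last step down to astrocytes. Tap1, with medians of 63.4, 55.7, 49.5 and 12.1 CPM in double-positive, CaMKII positive, microglial and astrocyte libraries, and Tapbp, highest in microglia at 265 CPM and lowest in astrocytes at 72.2 CPM, spanned less.

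**Figure D1:**
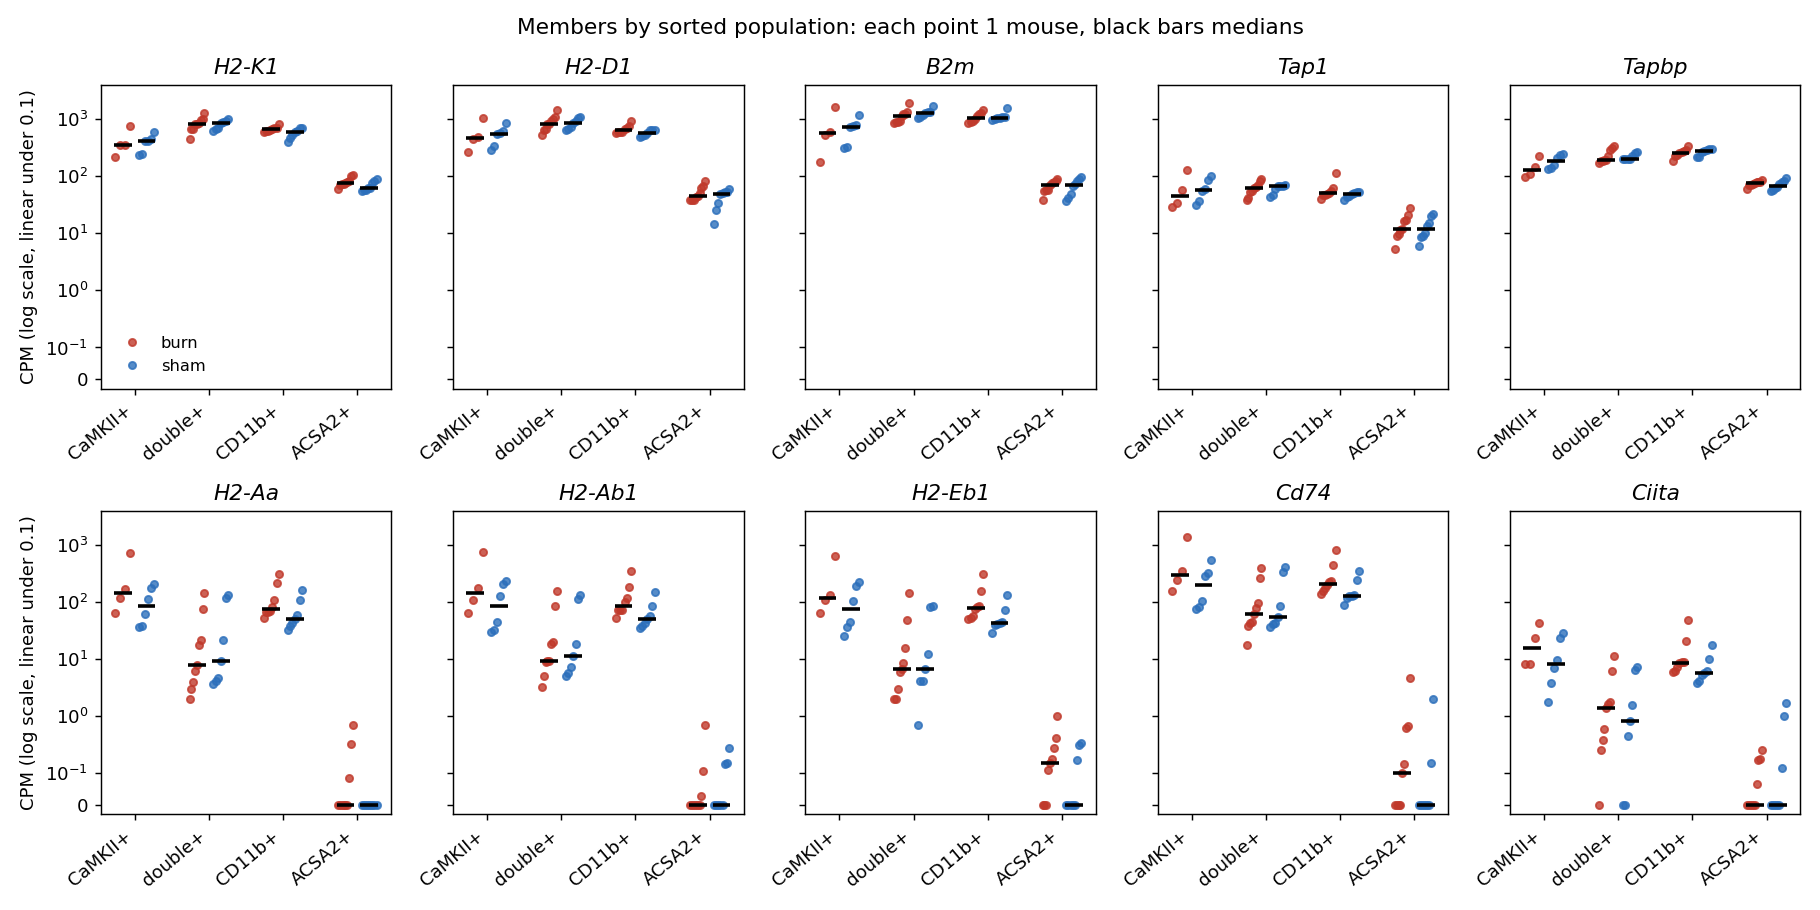
Level of each of the 10 members (CPM, logarithmic above 0.1 and linear below) in every kept library of the 4 sorted populations, with burn in red, sham in blue and the median of each group as a black bar. The class II members fall to 0 in many astrocyte libraries, and within each population the burn and sham points overlap for every member.

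Class II chain genes stood at medians of 116 (H2-Aa), 117 (H2-Ab1) and 106 CPM (H2-Eb1) in CaMKII positive libraries and at 67.1, 73.9 and 57.0 CPM in CD11b-positive microglia. In double-positive libraries the medians were 8.64, 10.3 and 6.74 CPM. Cd74, the invariant chain, followed the same order with 263, 176 and 58.8 CPM, as did Ciita with 8.83, 7.21 and 1.09 CPM. In astrocytes the members were close to undetected: 38 counts of H2-Aa, 51 of H2-Ab1, 101 of H2-Eb1, 181 of Cd74 and 98 of Ciita were found over all 17 libraries, and H2-Aa was at 0 in 14 of them. Ranges of neighbouring populations overlapped, apart from the step to astrocytes for H2-Aa, H2-Ab1 and Cd74. The order of CaMKII positive over microglia was not tested, and it turned in batches 1 and 2 (2 and 5 libraries) for 4 of the 5 class II members, where the medians were 47.4 and 52.4 CPM for H2-Ab1 and 115 and 141 CPM for Cd74.

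Per kilobase of annotated exon, which allows levels to be compared between genes, B2m led in every population, with a median of 1389 CPM per kb in double-positive libraries and 1246 in microglia. H2-K1 stood at 212 and H2-D1 at 234 CPM per kb in microglia, followed there by Cd74 at 105, Tapbp at 73.2, H2-Eb1 at 29.3, H2-Ab1 at 28.8, H2-Aa at 17.7, Tap1 at 9.05 and Ciita at 0.756. The class II chains of CaMKII positive libraries were at 30.5 to 54.6 CPM per kb and Cd74 there at 157 CPM per kb. H2-Ea-ps, the inactive I-E alpha gene of this strain, had 0 counts in all 58 libraries, so the H2-Eb1 transcript was measured without its partner chain.

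CD11b-positive microglia exceeded ACSA2-positive astrocytes of the same 15 mice in all 10 members. A gene was called where the Benjamini-Hochberg adjusted p of edgeR's quasi-likelihood test was at most 0.05 and the absolute log2FC at least 1. All 10 were called higher in microglia, where 21.7% of 30696 genes tested were called higher and 32.2% lower. The log2FC was 3.92 (SE 0.12) for B2m, 3.58 (SE 0.12) for H2-D1 and 2.96 (SE 0.10) for H2-K1, and the highest adjusted p by edgeR was 1.48e-08, for Ciita. Peptide loading genes differed less, with 1.83 (SE 0.19) for Tap1 and 1.74 (SE 0.09) for Tapbp. Each of the 10 was higher in microglia in 15 of 15 mice. For the class II genes the astrocyte side rested on the few counts above, which makes the size of their log2FC (10.03 for H2-Aa, 9.97 for H2-Ab1, 8.91 for Cd74, 8.68 for H2-Eb1 and 5.76 for Ciita) imprecise. The microglial libraries also exceeded astrocytes in 8 of 8 border macrophage, 5 of 5 monocyte and 5 of 6 dendritic cell markers, and the part of these in the class II levels was not tested.

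Other genes of the pathway largely moved with the members in this comparison. Of 65 tested, 48 were called higher in microglia and 3 lower, with 12 of 15 other class I chains, 6 of 6 class II exchange factors and other class II chains and 7 of 7 class II processing genes higher. Ctss, the protease that trims the invariant chain, stood at a median of 2811 CPM in microglia and 3.84 CPM in astrocytes (log2FC 9.57, SE 0.40). H2-Oa, a chain of the peptide exchange regulator H2-O, was at 8.41 CPM or more in every microglial library and at 0 in 17 of 17 astrocyte libraries, so that it passed the count minimum through microglia alone and had to be higher. Of 7 factors that bind class II promoters 2 were called higher and 1 lower, shares near those of all genes. The lower one was Rfxank, a subunit of the RFX complex (log2FC −1.66, SE 0.07; median 61.5 CPM in astrocytes and 19.5 CPM in microglia). Ide, a protease of the peptide supply list, was lower as well (log2FC −1.44, SE 0.08).

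CaMKII positive libraries also exceeded astrocytes of the same 10 mice, and 9 of the 10 members were called higher, against a background of 11.6% of 29746 genes called higher and 2.93% lower. Log2FC was 3.16 (SE 0.24) for H2-D1, 2.96 (SE 0.28) for B2m, 2.19 (SE 0.21) for H2-K1 and 1.82 (SE 0.31) for Tap1. Tapbp, at 0.99 (SE 0.16; edgeR adjusted p 4.15e-05), missed only the fold limit, and DESeq2 put it at 1.05. All 10 genes were higher in 10 of 10 mice. Of the 65 other pathway genes 35 were called higher and 0 lower, with 12 of 15 other class I chains and 5 of 5 costimulatory genes and 0 of 7 class II promoter factors among them. H2-Oa and the class I chain H2-M2 were among the called genes, but both had 0 counts in all astrocyte libraries and so passed the count minimum through CaMKII positive libraries alone, where they had to be higher. Their medians there were 1.70 and 0.288 CPM, the latter close to the level that 0 counts allow, and no fold is given. Markers of microglia (7 of 8), endothelial cells (8 of 8), dendritic cells (6 of 6), monocytes (5 of 5) and T cells (5 of 5) were called higher in the same libraries, and their part was not tested.

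**Figure D2:**
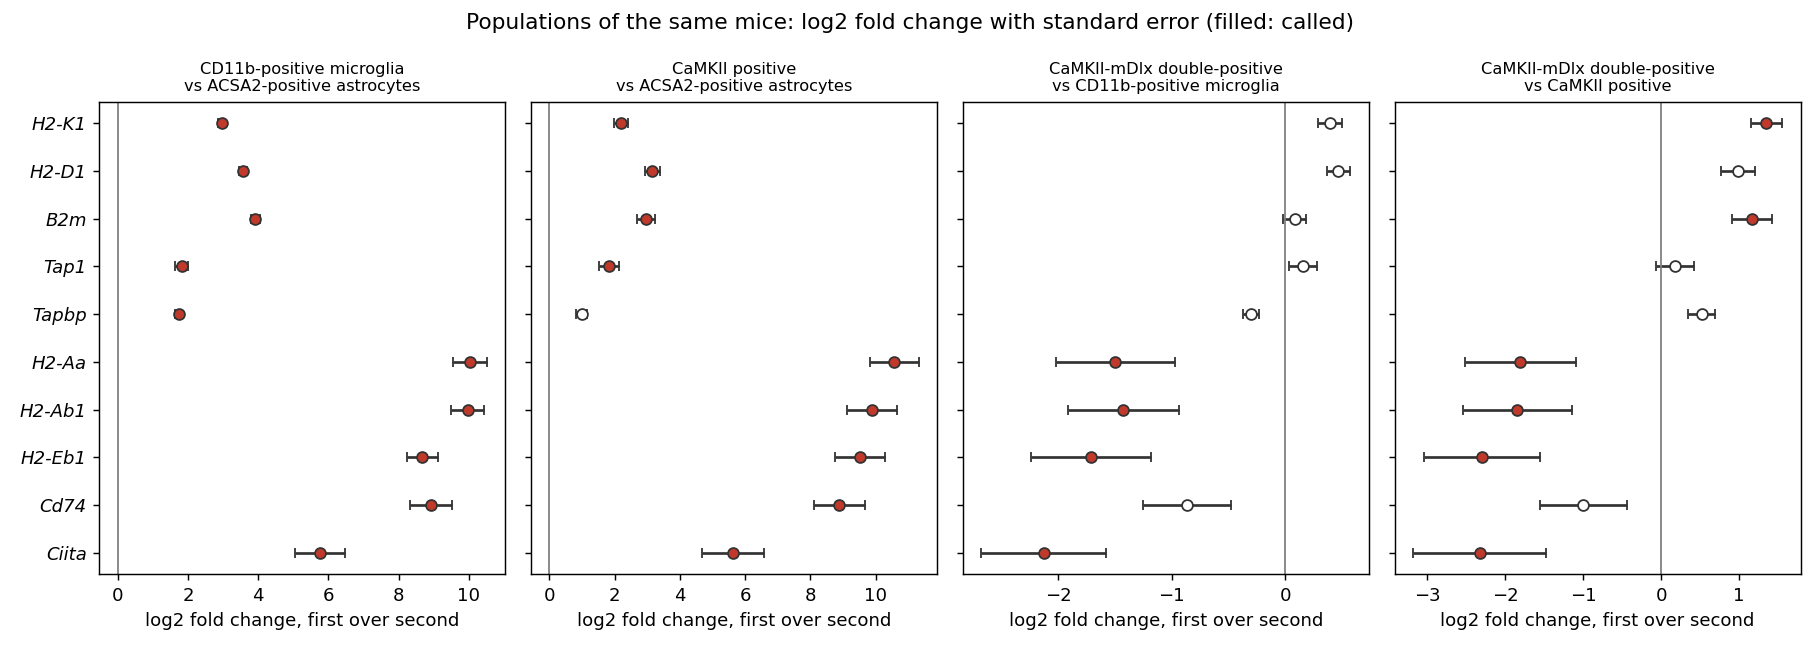
Log2FC with its SE (edgeR) of the 10 members in the 4 comparisons between sorted populations, with filled points for called differences. All values against astrocytes are positive, while double-positive libraries show positive values for the class I chains and negative values for the 5 class II members against both microglia and CaMKII positive libraries.

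Double-positive libraries differed from CD11b-positive microglia by less than the fold limit in all 5 class I members and by more in 4 of 5 class II members. In 14 mice with both, 4 class II members were called lower in double-positive libraries, where 4.11% of 28169 genes were called higher and 1.66% lower. They were Ciita (log2FC −2.13, SE 0.55, adjusted p 0.00815 by edgeR), H2-Eb1 (−1.71, SE 0.53, adjusted p 0.0269), H2-Ab1 (−1.43, SE 0.49, adjusted p 0.0456) and H2-Aa (−1.50, SE 0.52, adjusted p 0.0496). Within mice the double-positive library was lower in 12 of 14 for Ciita, 11 of 14 for the 3 chains and 10 of 14 for Cd74 (log2FC −0.87, SE 0.39, edgeR adjusted p 0.137), which was not called. With the mouse as a block Cd74 fell by 1.27 and was called too (edgeR adjusted p 0.0275), and the other 4 ran from −2.21 to −2.92.

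The class I members differed from microglia by less than the fold limit. H2-D1 was higher in double-positive libraries by 0.47 (SE 0.10, edgeR adjusted p 0.00208; 12 of 14 mice) and H2-K1 by 0.39 (SE 0.10, adjusted p 0.00986; 13 of 14 mice) on the log2 scale. Tapbp was lower, at −0.30 (SE 0.07, edgeR adjusted p 0.00289), whereas B2m at 0.08 and Tap1 at 0.16 did not pass the test. Of 65 other pathway genes, 3 were called higher in double-positive libraries: Nlrc5, the class I coactivator (log2FC 1.02), and the class I chains H2-Q6 (1.69, SE 0.31) and H2-Q7 (1.62, SE 0.32). With 1 called lower, these counts were near the 4.11% and 1.66% of all genes. H2-Q6 ran from 44.0 to 911 CPM and H2-Q7 from 61.6 to 1612 CPM among double-positive libraries. H2-Eb2, a little used class II beta chain gene at 0 in 14 of 16 double-positive libraries, was the one called lower.

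In the fit without the mouse as a block, the calls on class II against microglia were close to the threshold, whereas all 5 class II members were called with the block. Leaving out 1 mouse at a time from the fit without the block gave 1 to 5 called members. Without mouse 2, whose microglial library had the highest class II levels, H2-Aa (log2FC −1.22, edgeR adjusted p 0.131), H2-Ab1 (−1.12, adjusted p 0.132) and H2-Eb1 (−1.46, adjusted p 0.0743) kept their direction and a size over the fold limit but were not called. H2-Aa was also not called without mouse 13, 15, 16, 17, 21, 22, 23 or 24, H2-Ab1 without 13, 16, 17, 21, 22, 23 or 24, and H2-Eb1 without 13, 16, 21 or 23, with log2FC still below −1, while Cd74 was called without mouse 19. With DESeq2's size factors H2-Aa had an edgeR adjusted p of 0.0537, and in batch 3 alone Ciita and H2-Eb1 were called. Markers of border macrophages (6 of 8), monocytes (5 of 5), dendritic cells (4 of 6), B cells (4 of 5) and neutrophils (5 of 5) were also called lower in double-positive libraries, and 0 of 8 microglial markers. The part of those cells in the class II difference was not tested.

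Against CaMKII positive libraries of the same 9 mice, 2 of 5 class I members were called higher in the double-positive libraries and 4 of 5 class II members lower. Those called higher were H2-K1 (log2FC 1.35, SE 0.20, edgeR adjusted p 7.81e-06) and B2m (1.16, SE 0.26, edgeR adjusted p 0.000715), both in 9 of 9 mice, with 16.7% of 29558 genes called higher and 23.8% lower. H2-D1 stood just under the fold limit at 0.99 (SE 0.22, edgeR adjusted p 0.000743), also in 9 of 9 mice, and was called at 1.04 with the mouse as a block. Tapbp (0.52, SE 0.17, edgeR adjusted p 0.0137; 7 of 9 mice) was under the fold limit, and Tap1 (0.18, SE 0.25, edgeR adjusted p 0.556; 5 of 9 mice) did not pass the test. Called lower were Ciita (−2.33, SE 0.85, edgeR adjusted p 0.0275), H2-Eb1 (−2.30, SE 0.74, adjusted p 0.0134), H2-Ab1 (−1.84, SE 0.70, adjusted p 0.0339) and H2-Aa (−1.81, SE 0.71, adjusted p 0.0385). H2-Ab1, H2-Eb1 and Ciita were lower in 9 of 9 mice and H2-Aa and Cd74 in 8 of 9. Cd74 (−0.998, SE 0.556, edgeR adjusted p 0.135) was called only with the mouse as a block (−1.17, adjusted p 0.00375). Leaving out 1 mouse at a time gave 3 to 7 called members. H2-Aa was not called without mouse 2, 15, 22 or 24, H2-Ab1 without 2, 15 or 24, Ciita without 15 or 24, and B2m without 2, where its log2FC of 0.99 was just under the fold limit.

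Class II processing genes went the other way from the class II members in this pair. All 7 class II processing genes were called higher in double-positive libraries, among them March1, a ubiquitin ligase that removes class II from the surface (log2FC 3.84, SE 0.35; medians 194 and 13.8 CPM). The costimulatory ligand Cd86 was also higher (3.89, SE 0.33; 208 and 16.6 CPM), whereas Cd40 was lower (−2.16, SE 0.27; 1.67 and 9.07 CPM). H2-Eb2, at 0 in most double-positive libraries as given above, was called lower too (−6.90, SE 1.75), and the size of its log2FC is imprecise. In all, 28 of 65 other pathway genes were higher and 3 lower. The 8 microglial markers were higher in the same libraries and the 8 endothelial markers lower, and 3 of 5 monocyte, 3 of 6 dendritic cell and 4 of 5 T cell markers were lower. The border macrophage sum went the other way. Over all kept libraries it ran from 944 to 1775 CPM in double-positive and from 91.9 to 254 CPM in CaMKII positive libraries. The part of these markers was not tested.

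Class II levels differed widely among double-positive libraries. Libraries of mouse 10 (burn), 18 (sham), 19 (sham) and 20 (burn) stood apart from the other 12 in all 5 class II members, and the groups below are a description of these values. H2-Ab1 was at 153, 114, 131 and 85.6 CPM in them, against 3.24 to 20.1 CPM in the others. The same split held for H2-Aa (77.0 to 147 against 1.97 to 21.7 CPM), H2-Eb1 (49.4 to 144 against 0.706 to 15.8 CPM), Cd74 (262 to 416 against 17.4 to 95.2 CPM) and Ciita (6.22 to 11.4 against 0 to 1.75 CPM). Both treatments occurred on both sides, as the plot of class II members by mouse shows. Mouse 10 also had the highest sums of dendritic cell (39.2 CPM), monocyte (46.6 CPM), B cell (17.2 CPM), T cell (7.31 CPM), border macrophage (1775 CPM) and endothelial markers (616 CPM) of the 16. In mice 18, 19 and 20 the dendritic cell sums of 13.2, 11.7 and 11.5 CPM were within the range of the other libraries, and the border macrophage sums of 944, 1092 and 992 CPM did not exceed it. Their endothelial sums were 99.5, 64.1 and 64.2 CPM, and their microglial sums of 18570, 17470 and 17150 CPM were the 13th, 15th and 16th of the 16. The part of these markers in the split was not tested.

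**Figure D3:**
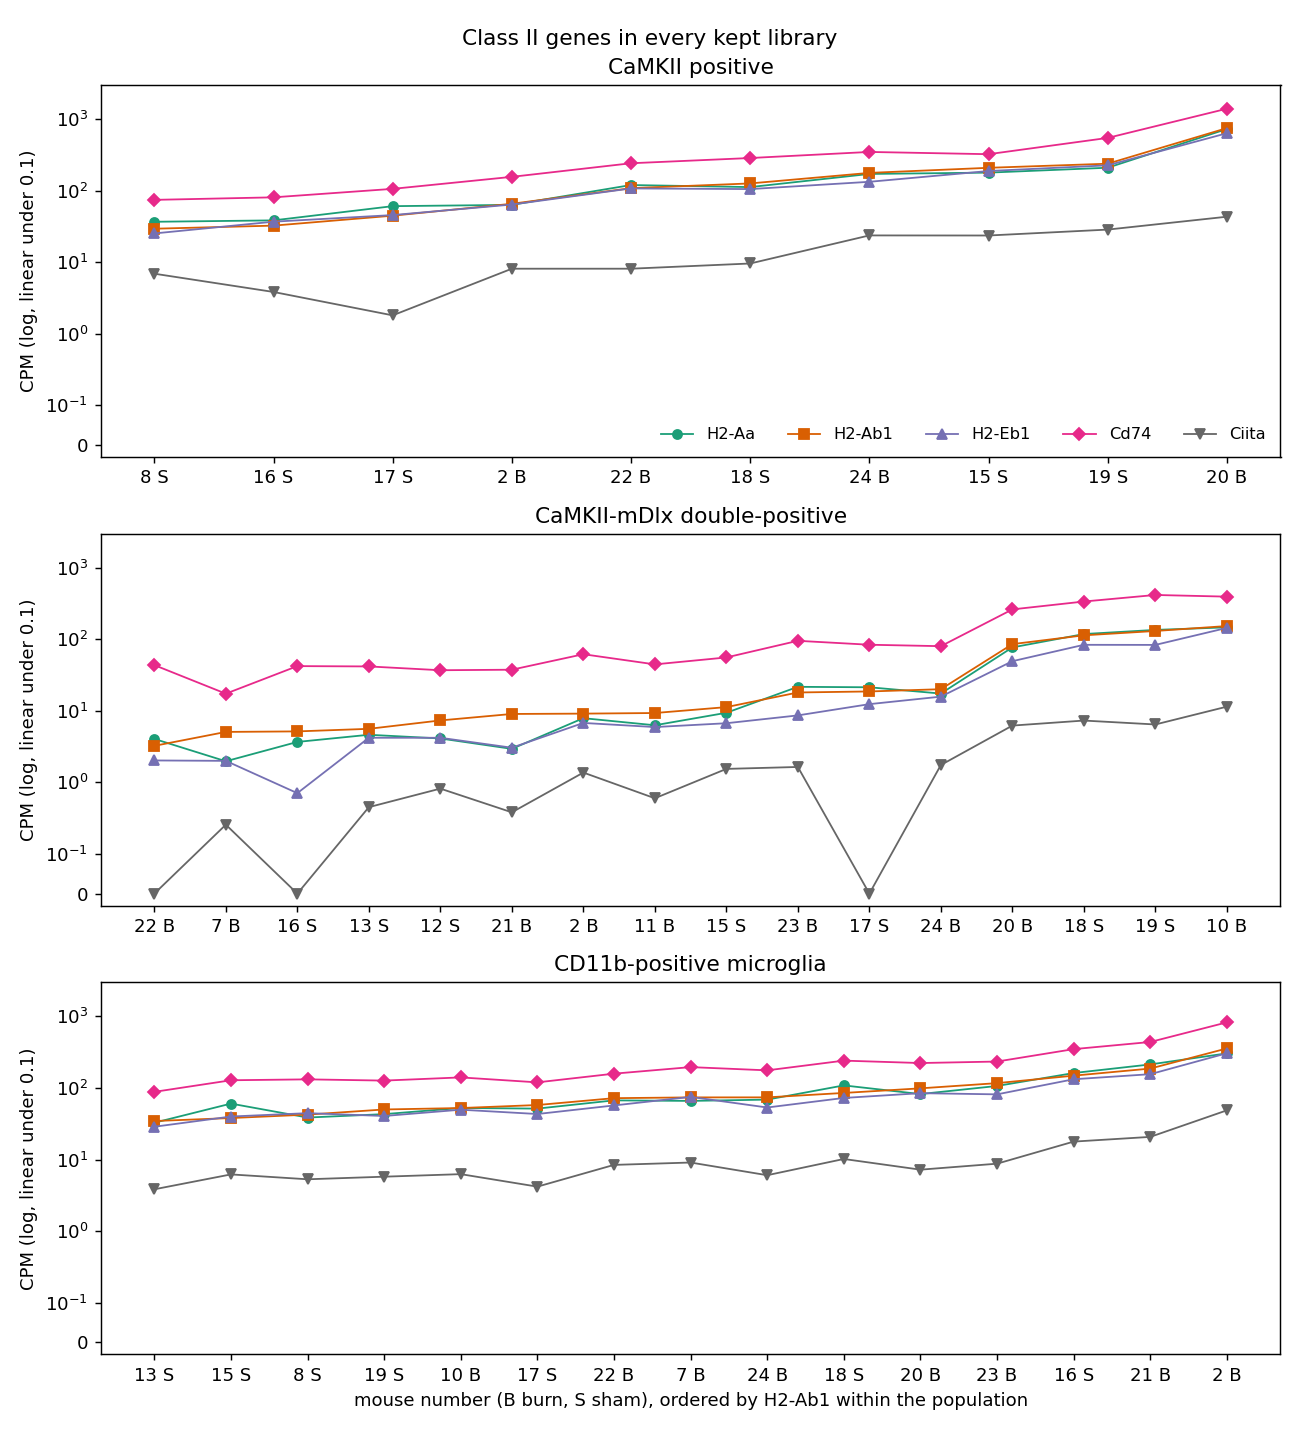
Levels of the 5 class II members (CPM, log axis) in each library of 3 sorted populations, with mice ordered by H2-Ab1 within each panel and burn and sham mice marked. In microglia the other class II members follow H2-Ab1 (r 0.932 to 0.980), and in double-positive cells mice 10, 18, 19 and 20 form a step above the other 12 libraries.

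The class II members varied together across microglial libraries while B2m passed the test with none of the other class I members. Of 20 relations computed among members and marker genes, 10 had an adjusted p of at most 0.05. Some of the 10 were class II relations over double-positive libraries chosen by class II level, and those only describe that set. Over 15 microglial libraries H2-Ab1 correlated with H2-Eb1 (r 0.980, rho 0.961), Cd74 (r 0.977, rho 0.939), H2-Aa (r 0.962, rho 0.946) and Ciita (r 0.932, rho 0.854). Each had a permutation p for r of 1e-05, the smallest the permutations can give (adjusted 5e-05), and adjusted permutation p for rho of 6.667e-05 or, for Ciita, 0.00048. Without mice 2 and 21, the farthest from the median, r was 0.951, 0.943, 0.917 and 0.823, and within batch 3 it was 0.971, 0.952, 0.915 and 0.847. The ratio of H2-Aa to H2-Ab1 stayed between 0.832 and 1.59 over these libraries, and that of Cd74 to H2-Ab1 between 2.00 and 3.37, while H2-Ab1 over B2m ran from 0.0321 to 0.388.

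B2m did not follow H2-Ab1 in microglia (r −0.028, adjusted permutation p 0.922), nor did it pass the test with H2-K1 (r −0.370), H2-D1 (−0.082), Tap1 (−0.210) or Tapbp (−0.150). Mrc1, a marker of border macrophages, gave r 0.262 with H2-Ab1 (adjusted permutation p 0.519). In 16 double-positive libraries B2m correlated with H2-D1 (r 0.697, rho 0.697, adjusted permutation p 0.00789), H2-K1 (r 0.601, rho 0.624, adjusted 0.0322) and Tap1 (r 0.557, rho 0.706, adjusted 0.05). Without mice 18 and 20, the farthest from the median of B2m, r fell to 0.453, 0.333 and 0.429. That leaves a narrower range of B2m, and no p was computed there. Within batch 3, which holds both mice, r was 0.65, 0.51 and 0.72. Because of the split above, class II relations in double-positive cells were taken over the other 12 libraries only, which were set apart by these same levels. There H2-Ab1 gave r 0.861 with H2-Aa, 0.853 with H2-Eb1, 0.757 with Cd74 and 0.502 with Ciita, the last not passing the permutation test (adjusted p 0.179). As the 12 were chosen by class II level, these values only describe them.

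Markers of other myeloid cells moved with class II in microglial libraries. H2-Ab1 gave r 0.886 (rho 0.896, adjusted permutation p 0.00012) with the summed level of 6 dendritic cell markers and r 0.818 (rho 0.789, adjusted permutation p 0.00076) with that of 5 monocyte markers, over 15 libraries and 12 relations chosen after the values were seen. Within batch 3 the first was 0.858, and without the 2 libraries farthest from the median r was 0.847 and 0.709. The border macrophage sum gave r −0.069 and the B cell sum 0.485 (adjusted permutation p 0.140). The dendritic cell sum ran from 28.4 to 58.5 CPM in burn and from 20.0 to 43.3 CPM in sham microglia. In 10 CaMKII positive libraries H2-Ab1 followed the monocyte sum (r 0.930, rho 0.927, adjusted permutation p 0.00024) with r 0.899 without the 2 libraries farthest from the median. The border macrophage sum passed for r (0.774, adjusted permutation p 0.0256; 0.503 without the 2 farthest) and not for rho (0.636, adjusted permutation p 0.131). The B cell sum passed for rho (0.782, adjusted permutation p 0.0307) and not for r (0.679, adjusted permutation p 0.0751), and the dendritic cell sum for neither (r 0.161). The remaining 4 relations, over the 12 double-positive libraries, are not read here, since those libraries were set apart by their low class II levels and leave out mouse 10.

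**Figure D4:**
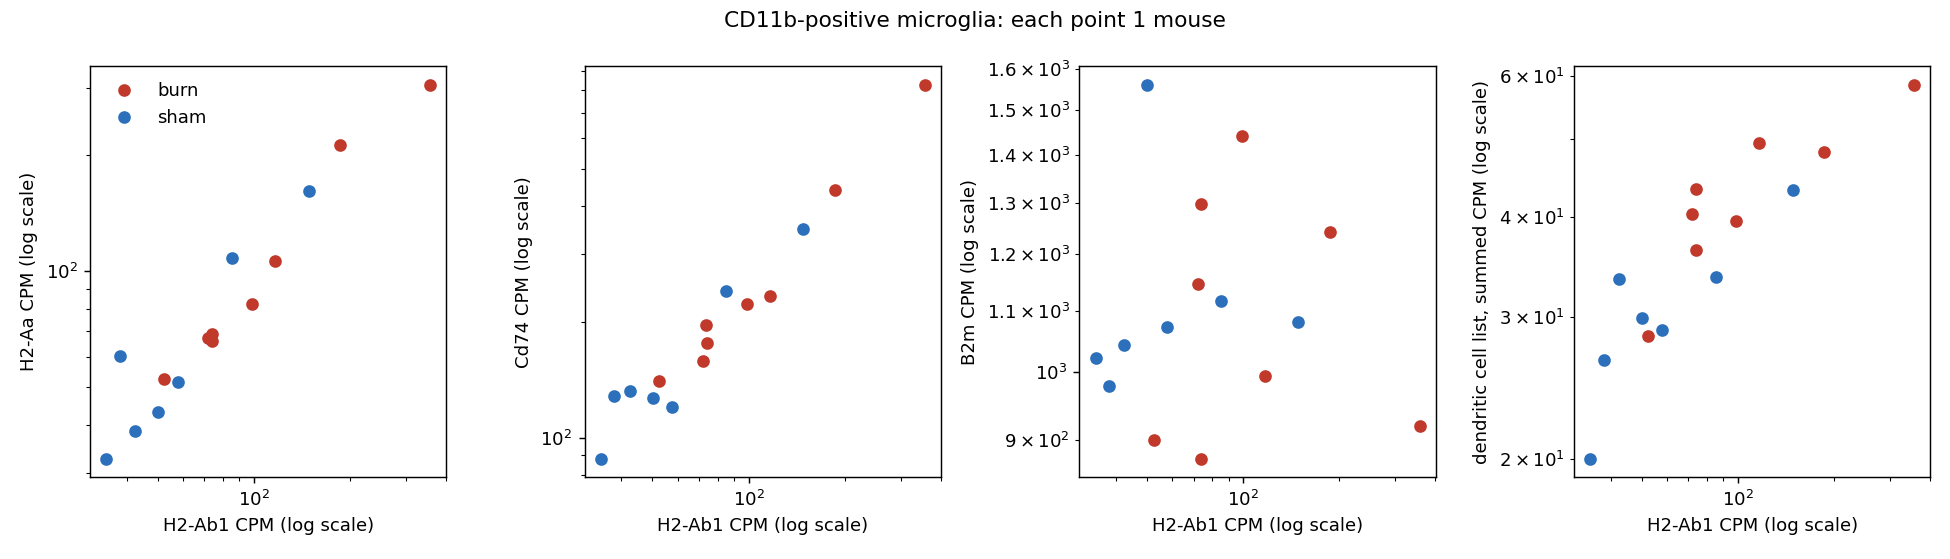
H2-Ab1 against H2-Aa, Cd74, B2m and the summed dendritic cell markers in the 15 CD11b-positive microglial libraries (CPM, log axes), with burn in red and sham in blue. H2-Aa and Cd74 rise with H2-Ab1 (r 0.962 and 0.977) and so does the dendritic cell sum (r 0.886), whereas B2m does not (r −0.028).

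The genes whose microglial pattern was most like that of a member were ranked by Spearman's rho over the same 15 libraries among 14771 genes with a mean of at least 1 CPM. For H2-K1 they were H2-Q4, another class I chain (rho 0.861), Rassf1, a RAS association domain protein (0.861), and Cxcl16, a chemokine (0.854), where the 99% quantile of all genes was 0.664. The other heavy chain gene among the members, H2-D1, had rho 0.743 with H2-K1. For H2-Ab1, outside the class II members, they were Plxnc1, a semaphorin receptor (0.950), Shtn1, known from neuronal polarity (0.911), and the lamin Lmnb1 (0.911), with a 99% quantile of 0.704. H2-Q4, Cxcl16, Plxnc1 and Shtn1 were all highest in mouse 2, as H2-K1 and H2-Ab1 were. These values describe 1 set of libraries, which share depth and batch.

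None of the 10 members was called between burn and sham in any population. The edgeR test called 0 of 28107 genes in CaMKII positive (0%), 0 of 26707 in double-positive (0%), 0 of 27930 in astrocytes (0%) and 0 of 26079 in microglia (0%). At an unadjusted p under 0.05 the shares of all genes were 3.9%, 7.01%, 10.7% and 7.81%, and DESeq2 called 3, 2, 27 and 80 genes, with 0 members among them. Burn and sham ranges overlapped for all 10 members in all 4 populations. Of 65 other pathway genes (61 in astrocytes) none was called in any population, and their median log2FC was 0.06, −0.05, 0.09 and 0.02. That of the members was 0.46, −0.29, 0.14 and 0.40, beside 0.02, −0.00, 0.05 and 0.00 over all genes.

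The 2 pathway genes with the smallest p in each population were also short of a call. In CaMKII positive libraries they were Ifi30, the reductase that opens antigens for class II (log2FC 1.34, SE 0.52, p 0.0217 by edgeR), and the adhesion molecule Icam1 (0.38). In double-positive libraries the costimulatory ligand Cd80 was at −0.41 (SE 0.11, p 0.00102, adjusted p 0.708 by edgeR) and the class I chain H2-M5 at 3.73. The interferon-gamma receptor subunit Ifngr2 was at −0.53 in astrocytes (SE 0.15, p 0.00178, adjusted p 0.458 by edgeR), with the class I chain H2-T24 at 0.96. In microglia they were Socs1, an inhibitor of interferon signalling (−0.52, SE 0.19, p 0.0130, adjusted p 0.639 by edgeR), and the class I chain H2-T10 (0.91, SE 0.36, p 0.0190).

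In CD11b-positive microglia, class II medians were higher in burn than in sham libraries, within a wide spread. H2-Ab1 ran from 52.4 to 357 CPM with a median of 86.4 in 8 burn libraries and from 34.5 to 149 CPM with a median of 50.1 in 7 sham libraries. Mice 2 and 21 lay above the highest sham library, and no burn library below the lowest. H2-Ab1 had the largest log2FC of the members, 0.82 (SE 0.37; p 0.0372, adjusted p 0.639 by edgeR), followed by H2-Eb1 at 0.67 (SE 0.36), H2-Aa at 0.65 (SE 0.38), Cd74 at 0.60 (SE 0.34) and Ciita at 0.56 (SE 0.44). Mouse 2, with the highest dendritic cell (58.5 CPM) and monocyte (136 CPM) sums, weighed on these values, which were 0.55, 0.43, 0.41, 0.36 and 0.29 without it. Without sham mouse 8 they were 0.55, 0.41, 0.36, 0.37 and 0.22. Mouse 8 was the only sham library of batch 1. Leaving it out therefore also took the 3 burn libraries of batch 1, mouse 2 among them, out of the contrast. Without burn mouse 21, which had the highest B cell sum (54.4 CPM, next 27.4 CPM), the values were 0.63, 0.44, 0.35, 0.38 and 0.26. Without sham mouse 16 they were higher, at 1.16, 1.02, 0.97, 0.88 and 0.94. All stayed above 0 in these fits and none was called. In batch 3 alone, the contrast that also remains without mouse 8, H2-Ab1 was at 0.56.

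The class I members of microglia had smaller log2FC than the class II members. H2-K1 ran from 610 to 832 CPM (median 671) in burn and from 397 to 715 CPM (median 590) in sham libraries, a log2FC of 0.23 (SE 0.11; p 0.0406, adjusted p 0.639 by edgeR). H2-D1 had medians of 636 and 584 CPM, with 4 of 8 burn libraries above the highest sham library (log2FC 0.19, SE 0.10, p 0.0688 by edgeR). Tap1 had a log2FC of the same size, 0.24 (SE 0.15), while B2m was at 0.02 (SE 0.11) and Tapbp at −0.08 (SE 0.10). In all, 9 of the 10 had a positive log2FC, where the median over all genes was 0.002. The class II members among the 9 vary together over these libraries (r 0.932 to 0.980 with H2-Ab1), so their signs are not independent. Of the 10, 2 had an unadjusted p under 0.05 by edgeR, against the 7.81% of all genes.

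In CaMKII positive libraries, the burn values of class II turned on 1 mouse. H2-Ab1 was at 65.4 (mouse 2), 108 (mouse 22), 177 (mouse 24) and 747 CPM (mouse 20) in burn, and from 29.3 to 238 CPM (median 85.3) in 6 sham libraries. Cd74 showed the same order, with 156, 241, 347 and 1395 CPM in burn and 74.2 to 545 CPM in sham. Mouse 20 lay above every sham library in 9 of 10 members, and the other 3 burn libraries lay inside the sham range for all class II members. The log2FC was 1.38 (SE 0.52) for H2-Aa, 1.38 (SE 0.58) for H2-Ab1, 1.31 (SE 0.55) for H2-Eb1 and 1.27 (SE 0.54) for Cd74. These 4 had unadjusted p of 0.0193 to 0.0342 (edgeR adjusted p 0.99985), against the 3.9% of all genes. Without mouse 20 the values were 0.43, 0.42, 0.37 and 0.39. That library also had the highest sums of monocyte (138 CPM), border macrophage (254 CPM) and microglial (1880 CPM) markers of the 10, while its dendritic cell sum of 76.3 CPM was not the highest.

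Class I in CaMKII positive libraries showed the same dependence. B2m was at 176, 539, 601 and 1638 CPM in burn mice 2, 22, 24 and 20, and from 313 to 1168 CPM (median 740) in sham. Mouse 2 lay below and mouse 20 above the sham range. The log2FC of 0.08 (SE 0.38) for B2m, 0.14 (SE 0.28) for H2-K1, 0.09 (SE 0.32) for H2-D1 and 0.05 (SE 0.35) for Tap1 became −0.50, −0.21, −0.32 and −0.48 without mouse 20. Tapbp was at −0.36 (SE 0.27) with it and −0.67 without.

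In double-positive libraries the class II log2FC were below 0 and none passed the test, and the medians had no common direction. Leaving out 1 library moved the values by more than 1.5 times. Without mouse 20 they were −1.61 for H2-Aa, −1.47 for H2-Ab1, −1.61 for H2-Eb1, −1.11 for Cd74 and −1.27 for Ciita, and without mouse 19 they were −0.34, −0.19, −0.40, −0.18 and −0.09. H2-Ab1 ran from 3.24 to 153 CPM (median 9.32) in 9 burn and from 5.16 to 131 CPM (median 11.3) in 7 sham libraries, a log2FC of −0.68 (SE 0.79). Batch 1 held 3 of the burn and 0 of the sham libraries. With batch as a term, those 3, the 153 CPM library among them, added nothing to the log2FC. The ranges and medians include them, so that medians and log2FC rest on different libraries. The ratio of burn to sham medians was 0.827 for H2-Ab1 and 0.841 for H2-Aa, but 1.01 for H2-Eb1 and 1.68 for Ciita, and the Cd74 medians were 61.8 CPM in burn and 55.7 CPM in sham. The log2FC of the other class II members were −0.84 (SE 0.86) for H2-Aa, −0.85 (SE 0.89) for H2-Eb1, −0.61 (SE 0.61) for Cd74 and −0.47 (SE 1.01) for Ciita. The class I members were near 0, from −0.10 (SE 0.10) for Tapbp to 0.12 (SE 0.15) for H2-K1, with H2-K1 medians of 841 and 846 CPM in burn and sham. The lowest edgeR adjusted p of the 10 was 0.965.

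In ACSA2-positive astrocytes the class I members were measured with small errors and showed no called difference. H2-K1 ran from 60.7 to 106 CPM (median 77.4) in 9 burn and from 55.8 to 89.5 CPM (median 62.5) in 8 sham libraries, a log2FC of 0.19 (SE 0.12). H2-D1 was at 0.20 (SE 0.17), Tap1 at 0.08 (SE 0.27), B2m at 0.02 (SE 0.14) and Tapbp at 0.00 (SE 0.10). The class II members had too few counts for a fold of use, and the signs of their log2FC are not read here. H2-Aa had 38 counts in 3 of 9 burn libraries and 0 in 8 sham libraries, whereas Ciita had 24 counts in burn and 74 in sham libraries (log2FC −3.74, SE 2.46). H2-Ab1 had 31 and 20 counts (−1.85, SE 1.54, but 0.33 without the batch term), H2-Eb1 71 and 30 (2.56, SE 1.47) and Cd74 135 and 46 (1.24, SE 1.53).

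**Figure D5:**
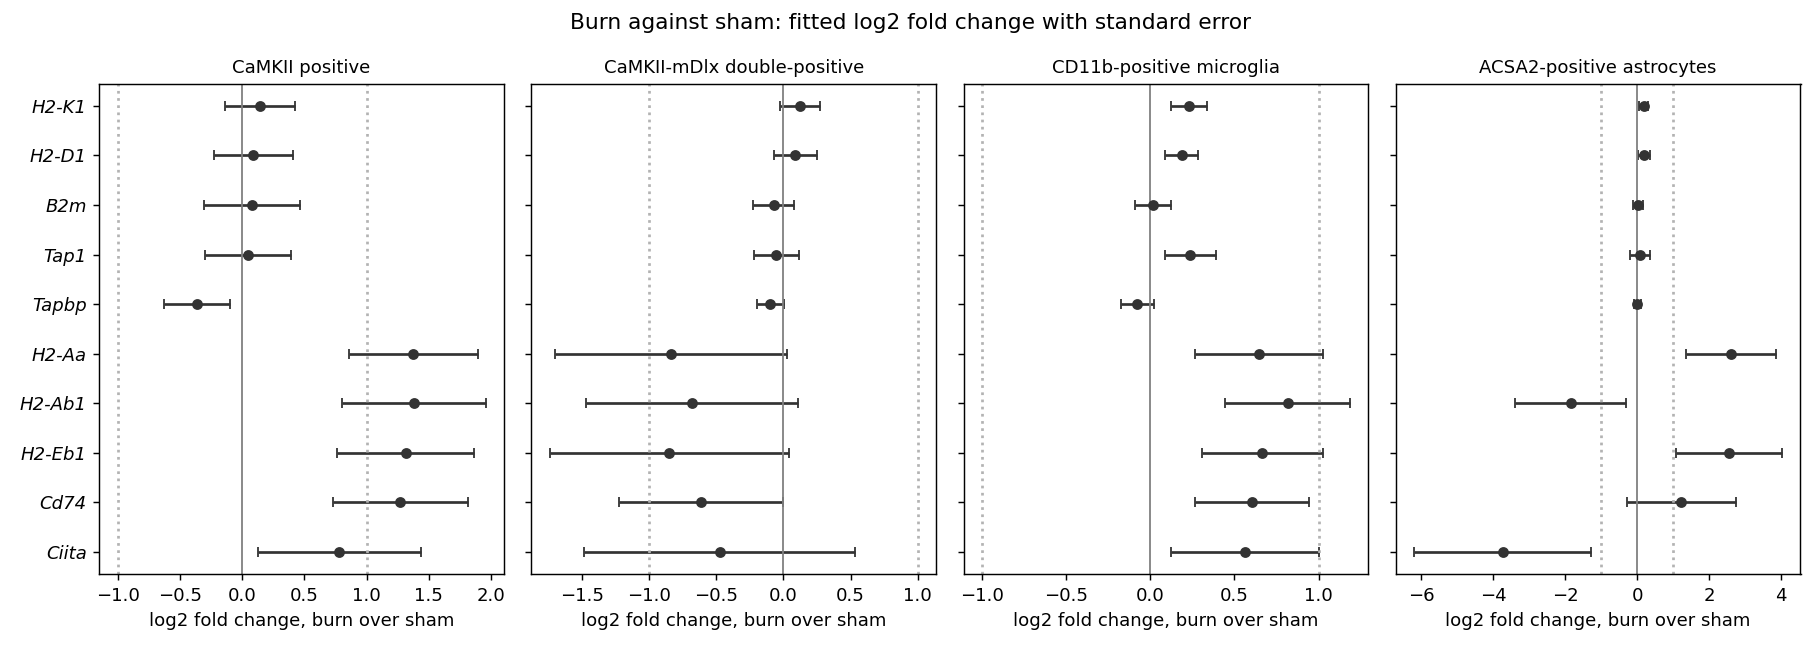
Log2FC of burn against sham with its SE (edgeR) for the 10 members in each sorted population, with dotted lines at the fold limit of 1. None was called. The class II values of astrocytes rest on few counts (38 of H2-Aa, all of them in burn libraries) and are no measure of size.

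The difference in burn effect between populations of the same mice was tested directly for 3 pairs. The edgeR test called 0 of 30696 genes for microglia against astrocytes (0%), 0 of 28169 for double-positive against microglia (0%) and 0 of 29746 for CaMKII positive against astrocytes (0%). For double-positive against microglia the replicate block called 17 genes, with 0 members among them. The 10 members had a median difference of −0.55 there, beside 0 over all genes, with 0 of 10 at an unadjusted p under 0.05, and the 5 class II members among them vary together. Ciita had the smallest p, in microglia against astrocytes (4.04, SE 1.43, p 0.00866, adjusted p 0.36 by edgeR), and its astrocyte side rested on 98 counts.

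Sequencing batch moved with several members, although none was called by edgeR. Batch 3 was set against batches 1 and 2, and in CaMKII positive libraries against batch 1 alone, since none of those was from batch 2. In CaMKII positive libraries 0 of 28107 genes were called (0%; 1509 at an unadjusted p under 0.05, and 111 by DESeq2). All 10 members were higher in batch 3, with a median log2FC of 1.50 beside −0.06 over all genes. B2m was at 1.74 (SE 0.54; edgeR adjusted p 0.731) and was called by DESeq2 (adjusted p 0.0375), and H2-Ab1 was at 2.26. Only 2 of these 10 libraries were outside batch 3. Among double-positive libraries, with 1.12% of genes called, Tapbp fell by 0.47 on the log2 scale in batch 3 (SE 0.09, edgeR adjusted p 0.0062), under the fold limit. Among astrocytes, with 1.03% called, B2m was higher by 0.57 (SE 0.14, edgeR adjusted p 0.0311), and among microglia, with 0.399% called, Tapbp was at −0.32 (SE 0.11, edgeR adjusted p 0.146). Of the other pathway genes, H2-Q6 (1.68), H2-Q7 (1.70) and H2-Q10 (1.08) were called higher in batch 3 in double-positive libraries, and Ctss (2.33) in astrocytes.

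Reads of class I genes can be hard to place. Of the 50-base windows in exons, 9.63% of those in H2-K1 and 12.8% of those in H2-D1 also occur in other genes, most often H2-Q10 and H2-Q1, so that counts could be split between them. Next came the other member, with 4.08% of the H2-K1 windows found in H2-D1 and 5.44% of the H2-D1 windows in H2-K1. The levels of H2-K1 and H2-D1 may therefore not be wholly separate. Tapbp overlaps Gm19412 on the other strand over 24.9% of its exons, Tap1 overlaps Psmb9 over 3.87% and Ciita overlaps Dexi over 3.45%. The libraries were stranded, but whether the counting used the strand is not given in the sources used here. B2m, H2-Ab1 and H2-Eb1 shared no such window and no overlap.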

How the data were processed

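Raw counts per gene of sorted cortical populations were analysed as deposited. Per the labels and the methods of the study, the authors trimmed reads (fastp), aligned them (STAR), counted them per Ensembl gene (GenomicAlignments) and used DESeq2 with sequencing batch as a term. Both mm10 and GRCm39 are named as builds. The tables of normalised values were not used, and 0 columns of the count tables were left unassigned. The members and all gene lists were chosen with earlier results of these data known.

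Of 63 libraries 58 were kept; mouse 3 in all populations and the double-positive library of mouse 8 (331215 counts) were left out. Genes with at least 10 counts in total were tested with edgeR 4.0.16 (TMM, quasi-likelihood) in R 4.3.3, with batch as a term and, between populations, in mice with both. A call needed both a Benjamini-Hochberg adjusted p up to 0.05 and a log2FC of 1 or more in size. CPM is the count scaled to the library total. Relations used log2(CPM + 0.1) and 100000 permutations, two-sided. Batch came from the study's supplement. Named genes were all members, the 2 pathway genes with the smallest p for burn in each population, the 2 called with the largest log2FC in each direction between populations, and the 3 most like H2-K1 and H2-Ab1; Nlrc5, H2-Q10 and the other pathway genes called between batches were named after their values were seen. The same mouse number marks the same animal across populations. The median correlation of paired deviations was 0.0344 for microglia and astrocytes and 0.0256 to 0.0456 for the other pairs. Fits were tested on simulated data: in microglia the burn comparison recovered 65 of 100 genes changed by 1.5 and 90 of 100 changed by 3 on the log2 scale, and in CaMKII positive libraries 39 and 60. False calls for burn ran from 2 in double-positive to 14 in CaMKII positive libraries, with 4 in microglia. Microglia against astrocytes gave 29. The changed genes had a mean of at least 10 counts, so that recovery does not cover class II in astrocytes. Alternatives were DESeq2 1.42.0, its size factors, no count filter, no batch term, batch 3 alone, all libraries, the mouse as a replicate block, and leaving out each mouse. No 2 libraries were identical. Annotation came from a GRCm38 release, used for names, lengths and overlaps.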

Additional observations from a re-analysis of the deposited data

Results flagged for a closer look

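In 19 of 79 groups of 4 to 9 libraries the highest library lay far from the nearest other one, measured by the gap over the range of the group (chance gives this in about 1 in 20 groups). The groups are not independent, since class II members share libraries.

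Mouse 20 stood out among the burn CaMKII positive libraries, with 725.6 CPM of H2-Aa (next 170.9), 747.1 CPM of H2-Ab1 (next 176.8), 634.0 CPM of H2-Eb1 (next 132.7) and 1395 CPM of Cd74 (next 347.1). The same mouse stood out in double-positive burn libraries with 1960 CPM of B2m (next 1356) and in astrocyte burn libraries with 4.617 CPM of Cd74.

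Mouse 2 stood out in burn microglia for 6 members: 831.8 CPM of H2-K1 (next 699.5), 113.9 CPM of Tap1 (next 63.17), 357.0 CPM of H2-Ab1 (next 186.8), 306.0 CPM of H2-Eb1 (next 155.9), 826.6 CPM of Cd74 (next 439.5) and 48.69 CPM of Ciita (next 20.71). In its astrocyte library H2-Aa and H2-Ab1 were at 0.7042 CPM each and H2-Eb1 at 1.014 CPM, the highest of the burn astrocytes.

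Among the remaining groups, double-positive burn mouse 10 had 144.3 CPM of H2-Eb1 (next 49.4). In sham microglia mouse 19 had 1560 CPM of B2m (next 1116) and mouse 16 had 132.4 CPM of H2-Eb1 (next 72.55). Sham mouse 16 also had 1.995 CPM of Cd74 in astrocytes.

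Among the libraries left out of the comparisons, H2-D1 was at 19150 CPM in the double-positive library of sham mouse 8, where the highest kept sham library had 1109 CPM. This was 6344 counts of a total of 331215. In the astrocyte library of burn mouse 3 H2-D1 was at 76.01 CPM (3115 counts), where the highest sham library had 60.53 CPM.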

How the results depend on the processing

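Depth and the number of libraries limit these results: class II in astrocytes rests on 38 to 181 counts a gene, CaMKII positive has 4 burn libraries, and the simulated burn comparison there recovered fewer changed genes than in microglia. Outside the leave-one-out fits, 478 log2FC values of single genes kept direction and side of the threshold, 17 reversed, 7 became called and 6 lost the call.

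DESeq2 called 3 genes between burn and sham in CaMKII positive, 2 in double-positive, 27 in astrocytes and 80 in microglia where edgeR called 0, and 111, 612 and 417 between batches in CaMKII positive, astrocytes and microglia, with 1 member (B2m in CaMKII positive) among them. With all libraries 136 genes were called between burn and sham in double-positive cells (median log2FC of all genes 0.22), and without the count filter 14 in double-positive cells and 4 in astrocytes. In batch 3 alone, chosen after seeing the data, 1008 genes and 2 members were called between double-positive cells and microglia, and 3 members between double-positive and CaMKII positive. The replicate block called 17 genes for the difference in burn effect between double-positive cells and microglia. It also called Cd74 (−1.27 and −1.17) and H2-D1 (1.04) as given above, and changed no other call of a member.

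Without the batch term the burn log2FC reversed for Tap1 in CaMKII positive (−0.0059), Ciita (0.17), Tapbp (0.066) and Tap1 (0.034) in double-positive, B2m (−0.020) and H2-Ab1 (0.33) in astrocytes and B2m in microglia (−0.023). With all libraries it reversed in double-positive cells for Tapbp (0.29), Tap1 (0.32), B2m (0.39) and H2-D1 (−0.99). Tapbp in astrocytes was at −0.0023 with DESeq2 and −0.0024 with its size factors. In batch 3 alone Tap1 (−0.061) and B2m (−0.14) reversed in astrocytes. The batch log2FC in microglia was 0.023 for H2-K1 and 0.014 for H2-D1 with DESeq2.

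With TMM-scaled levels r of B2m with Tapbp was 0.103 in microglia and 0.041 in double-positive cells. Centred within batch, B2m in microglia gave r 0.057 with H2-D1, 0.129 with Tap1 and 0.391 with Tapbp, and in double-positive cells 0.238 with Tapbp. Of the relations reported as passing, B2m with H2-K1 in double-positive cells did not pass with TMM-scaled levels (r 0.480, adjusted permutation p 0.119) or centred within batch (r 0.486, adjusted permutation p 0.101), nor did B2m with Tap1 with a pseudocount of 1 CPM (r 0.557, adjusted permutation p 0.0502). The cause of these changes was not tested.

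Leaving out 1 mouse at a time gave 1 to 5 called members between double-positive cells and microglia and 3 to 7 between double-positive and CaMKII positive. The burn log2FC then crossed 0 in CaMKII positive for Tap1 (−0.48 to 0.31), B2m (−0.50 to 0.31), H2-D1 (−0.32 to 0.25) and H2-K1 (−0.21 to 0.29). In double-positive cells it ran from −1.27 to 0.0039 for Ciita, −0.24 to 0.0096 for B2m, −0.046 to 0.18 for H2-D1 and −0.17 to 0.048 for Tap1. In astrocytes it ran from −0.047 to 0.064 for Tapbp, −0.045 to 0.22 for Tap1, −0.078 to 0.079 for B2m, −2.82 to 0.32 for H2-Ab1 and −0.56 to 4.11 for Cd74, and in microglia from −0.039 to 0.12 for B2m.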
